A study of Mus musculus with 4 samples.

Results

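The 43 genes described here encode enzymes of the tricarboxylic acid (TCA) cycle, of pyruvate entry into it and of the beta-oxidation of fatty acids. They were chosen by name, by pathway, and all 43 are among the 55335 rows of the expression table: 10 for pyruvate entry, 17 for the TCA cycle and 16 for beta-oxidation. Their levels were compared between 2 fractions of epithelium sorted from the corpus, the acid-secreting main body of the stomach. All cells came from C57BL/6 mice aged 6 to 8 weeks of the genotype Iqgap3-2A-tdTomato, whose Iqgap3 locus also drives the red fluorescent protein tdTomato, so that both fractions carry the reporter allele. Live cells were sorted for the epithelial surface protein EpCAM and split into an Iqgap3-high fraction (IQ3pos) and an Iqgap3-low or negative fraction (IQ3neg). The pools of 3 mice gave the libraries IQ3pos_1909A and IQ3neg_1909B, the pools of 4 mice IQ3pos_1910A and IQ3neg_1910B, all made by SMART-Seq2, which amplifies full-length cDNA from little RNA. Wherever 2 values are given for a fraction, the pool of 3 mice comes first. With pooled mice and 2 libraries per fraction, differences between single animals are not seen, and p-values measure the spread between these pools, part of which may be technical.

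Pyruvate, the end product of glycolysis, enters the cycle as acetyl-CoA made by the pyruvate dehydrogenase complex, which its kinases switch off, or as oxaloacetate made by pyruvate carboxylase. The cycle oxidises acetyl-CoA and passes the electrons to the respiratory chain. Beta-oxidation shortens fatty acids step by step to acetyl-CoA and hands electrons to the same chain through the electron transfer flavoproteins. In the corpus, parietal cells, which pump acid, are known for their dense mitochondria, whereas chief cells are filled with stores of digestive enzymes.

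Levels are CPM, the reads of a gene per 1000000 reads assigned to genes, and depth ran from 90714929 to 418401262 such reads per library. The chief cell genes Clps, Pla2g1b, Pgc and Chia1 held 50.8% and 48.9% of the IQ3neg reads against 6.00% and 2.11% of the IQ3pos reads. Since CPM are shares, the median of all 13019 genes tested lay 0.68 higher in IQ3pos on the log2(CPM + 1) scale. TMM scaling, which sets library factors so that the bulk of genes line up, brought that shift to 0.04. Both scales are given below, and a difference on CPM is read against 0.68. In bulk libraries, a different share of cells of a type and a different amount of RNA per cell cannot be told apart. Iqgap3 itself stood at 0.221 and 9.32 CPM in IQ3pos, with 0.0435 and 0.452 CPM in IQ3neg. It was higher in IQ3pos within each pool size, but IQ3pos_1909A lay under IQ3neg_1910B.

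In most of the 43 genes, both IQ3pos libraries stood above both IQ3neg libraries. Of the 42 genes that passed the filter of a mean of 1 CPM (all but Pdk4), 37 had this order on CPM, where 40.9% of all genes did. On TMM-scaled CPM the count was 29 of 42, against 24.7% of all genes. A single gene, Acads, stood lower in both, where 23.0% of all genes did on the TMM scale. The summed level of the 43 genes was 10740 and 10855 CPM in IQ3pos, with 3173 and 4001 CPM in IQ3neg. The groups did not overlap, and the IQ3pos mean was 3.01 times the IQ3neg mean on CPM and 1.78 times after TMM scaling. The median log2 difference of the 42 genes was 1.45 on CPM, 0.77 above the median of all genes, and 0.68 with TMM scaling, 0.64 above it. By pathway the medians on the TMM scale were 0.33 for pyruvate entry, 0.69 for the TCA cycle and 0.77 for beta-oxidation.

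At an adjusted p of 0.05 over all genes, limma called none of the 43 genes higher or lower, nor any other gene (0.0% of 13019 called higher, the smallest adjusted p was 0.0542). Without adjustment, at p under 0.05, limma on CPM placed 32 of the 42 higher, where it placed 18.2% of all genes, and none lower. On TMM-scaled CPM, limma placed 15 of the 42 higher at that unadjusted level, beside 7.63% of all genes. After adjustment it called 0 of them, beside 0.0461% of all genes called higher. The edgeR quasi-likelihood test on the recovered reads called 0 of the 43, beside 0.0654% of 16831 genes called higher. The DESeq2 Wald test called 0 of the 43 higher, beside 2.54% of genes, and 1 lower, Acads, beside 10.1% of genes. The differences below are therefore sizes with their errors, and single genes are named as higher or lower by the order of the 4 libraries. In every role, counts of genes higher in both IQ3pos libraries are read against 40.9% of all genes on CPM and 24.7% after TMM scaling.

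**Figure D1:**
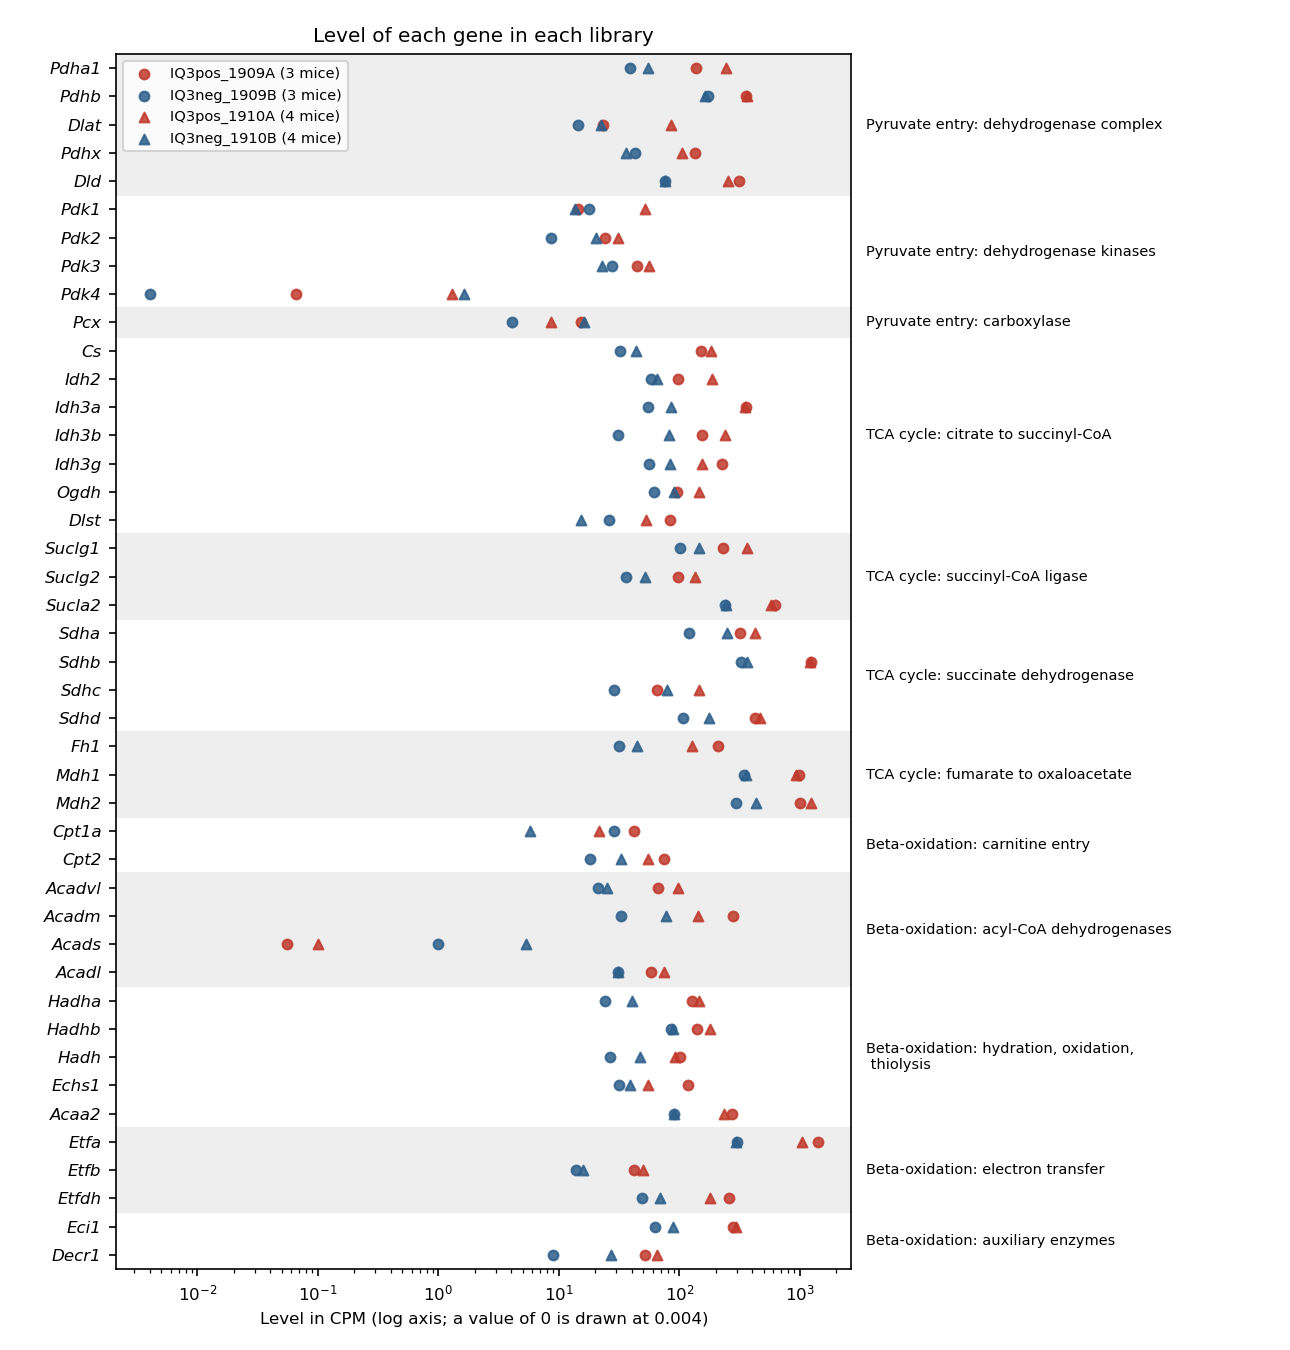
Level of each of the 43 genes in each library, in CPM on a log axis, with red for IQ3pos, blue for IQ3neg, circles for the pools of 3 mice and triangles for the pools of 4 mice. Rows are grouped by the role of the enzyme; in 37 rows both red marks lie to the right of both blue marks, and in the row of Acads they lie to the left.

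The pyruvate dehydrogenase complex turns pyruvate into acetyl-CoA. All 5 of its genes stood higher in both IQ3pos libraries on CPM, 4 of them also after TMM scaling. Of all genes, 40.9% and 24.7% had this order. Pdhb, which encodes the beta subunit of the decarboxylating enzyme, stood at 355 and 364 CPM in IQ3pos, with 174 and 161 CPM in IQ3neg. Dld, the dihydrolipoamide dehydrogenase shared with the alpha-ketoglutarate dehydrogenase complex, stood at 312 and 252 against 75.7 and 76.4 CPM. Both genes had close values within a fraction and a clear gap between the fractions. The log2 difference on CPM was 1.10 ± 0.26 (SE; limma adjusted p = 0.0954) for Pdhb and 1.87 ± 0.30 (limma adjusted p = 0.0659) for Dld. With TMM scaling these differences were 0.33 and 1.11. Pdha1, the alpha subunit of the same enzyme, had 4.08 times the IQ3neg mean in IQ3pos, and Pdhx, which holds Dld in the complex, 3.05 times. Dlat, the acetyl-transferring core, was uneven: its level was 1.59 times as high in IQ3pos in the pools of 3 mice and 3.86 times in the pools of 4 mice, and its groups overlapped after TMM scaling.

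The pyruvate dehydrogenase kinases phosphorylate the complex and switch it off. Pdk1 stood at 14.5 and 51.3 CPM in IQ3pos, with 17.9 and 13.5 CPM in IQ3neg. Pdk2 stood at 24.2 and 31.1 against 8.62 and 20.3 CPM, and Pdk3 at 44.1 and 56.3 against 27.5 and 22.9 CPM. The groups overlapped for Pdk1 on both scales and for Pdk2 and Pdk3 after TMM scaling, so that none of the 3 kinases tested had separate groups there. Their TMM-scaled log2 differences were 0.05 ± 0.73, 0.26 ± 0.60 and 0.21 ± 0.45 (SE), each smaller than its error, so that size and direction stayed undetermined. For Pdk1 the 2 pool sizes went in opposite directions, with -1.11 in the pools of 3 mice and 1.22 in the pools of 4 mice. Pdk4, the kinase best known for its induction by fasting, was low throughout, and at the edge of detection in the pools of 3 mice. It had 6 and 364 reads in IQ3pos against 0 and 682 in IQ3neg. Its level in the pools of 4 mice was 1.30 CPM in IQ3pos and 1.63 CPM in IQ3neg. In the pools of 3 mice it was 0.0661 CPM in IQ3pos, and the count of 0 in IQ3neg allows up to 0.0261 CPM (3 reads, counting error only).

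Scaled by exon length, Pdk3 was the most abundant kinase of the 4 in every library. It made up 64.4% and 56.7% of the summed kinase level in IQ3pos, with 68.1% and 51.0% in IQ3neg. Pdk2 followed with a mean share of 26.9% in each fraction, Pdk1 with 12.0% in IQ3pos and 12.2% in IQ3neg, and Pdk4 with 0.514% and 1.32%. The shares of IQ3pos lay within the range of IQ3neg or overlapped it for all 4 (exact permutation p = 1.0 for each, two-sided, 2 libraries against 2, where the smallest possible p is 0.333). Pcx, pyruvate carboxylase, replenishes oxaloacetate. It stood at 15.3 and 8.51 CPM in IQ3pos, with 4.07 and 16.2 CPM in IQ3neg. Its 2 pool sizes went in opposite directions, with TMM-scaled log2 differences of 0.93 in the pools of 3 mice and -1.45 in the pools of 4 mice.

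The 7 genes of the steps from citrate to succinyl-CoA all stood higher in both IQ3pos libraries on CPM, and 5 did after TMM scaling. Among all genes the shares were 40.9% and 24.7%. Idh3a, the catalytic subunit of the NAD-dependent isocitrate dehydrogenase (chromosome 9, 54586334 to 54604661, plus strand, GRCm38), had the largest difference towards IQ3pos of the 42 tested genes on both scales. It stood at 359 and 351 CPM in IQ3pos, with 54.7 and 85.2 CPM in IQ3neg. The IQ3pos libraries were nearly equal, and the lower of them was over the higher IQ3neg library by a wide gap. The mean was 355 ± 5.29 against 70.0 ± 21.6 CPM (SD, n = 2 each), 5.07-fold. The log2 difference was 2.36 ± 0.34 on CPM (SE; limma adjusted p = 0.0650) and 1.60 ± 0.29 with TMM scaling (limma adjusted p = 0.112).

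The other subunits of the same enzyme, Idh3g and Idh3b, showed smaller differences. Idh3g, a regulatory subunit, stood at 226 and 153 CPM in IQ3pos, with 55.8 and 83.4 CPM in IQ3neg. Its difference was larger in the pools of 3 mice (4.04-fold) than in those of 4 mice (1.84-fold). After TMM scaling these log2 differences were 1.13 and 0.22. Cs, citrate synthase, which joins acetyl-CoA to oxaloacetate, had 4.40 times the IQ3neg mean in IQ3pos and TMM-scaled log2 differences of 1.35 and 1.38 in the 2 pool sizes. Dlst, the succinyl-transferring core of alpha-ketoglutarate dehydrogenase, was 3.32-fold higher in IQ3pos. Ogdh, the decarboxylating subunit of that same complex, was only 1.59-fold higher on CPM, under the shift of all genes, and its log2 difference was -0.10 ± 0.34 (SE) with TMM scaling. The values of this complex thus ran from Ogdh through Dlst to the shared Dld, and the gaps between them were not tested.

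Idh2 carries out the isocitrate step with NADP in place of NAD. It stood 1.69-fold higher in IQ3pos in the pools of 3 mice and 2.91-fold in the pools of 4 mice, and its groups overlapped after TMM scaling. A ratio of 2 genes within a library does not depend on what the rest of the library takes up. The log2 ratio of Idh2 to Idh3a, per exon length, was -0.90 and 0.07 in IQ3pos, with 1.05 and 0.57 in IQ3neg. Both IQ3pos libraries thus had less Idh2 per Idh3a than both IQ3neg libraries, with a mean difference of -1.23. The exact permutation p was 0.333 (two-sided, n = 2 each), the smallest that this design allows, and after adjustment over the 9 ratios and shares computed it was 1.0, as for all of them.

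Succinyl-CoA ligase turns succinyl-CoA into succinate and makes ATP or GTP, and all 3 of its genes stood higher in both IQ3pos libraries on both scales. Sucla2, the ATP-forming subunit, stood at 616 and 577 CPM in IQ3pos, with 238 and 242 CPM in IQ3neg. Suclg1, the subunit shared by both forms, stood at 231 and 362 against 101 and 145 CPM. The 3 genes lay close together in size, with TMM-scaled log2 differences from 0.48 to 0.62. Sucla2 was the more abundant partner over the GTP-forming subunit Suclg2 in every library: the log2 ratio of Suclg2 to Sucla2 per exon length was -2.59 ± 0.38 in IQ3pos, with -2.68 ± 0.36 in IQ3neg (SD, n = 2 each; exact permutation p = 0.667).

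Succinate dehydrogenase is both an enzyme of the cycle and complex II of the respiratory chain. Sdhb, its iron-sulfur subunit (chromosome 4, 140961203 to 140979193, plus strand, GRCm38), stood at 1242 and 1203 CPM in IQ3pos, with 322 and 360 CPM in IQ3neg. Sdhd, a membrane anchor, stood at 424 and 464 against 107 and 175 CPM. Sdhb kept to a narrow range in each fraction, Sdhd was more spread in IQ3neg, and for both the fractions were well apart. The log2 difference of Sdhb was 1.84 ± 0.24 (SE; limma adjusted p = 0.0605) on CPM and 1.07 ± 0.22 with TMM scaling, and it was nearly equal in the pools of 3 and 4 mice (1.07 and 1.08). The other 2 subunits differed less. Sdha, the flavoprotein, had 2.02 times the IQ3neg mean in IQ3pos, and Sdhc, the other anchor, 1.96 times, and their groups overlapped after TMM scaling. Sdhc stood at 64.9 and 147 CPM in IQ3pos, with 28.6 and 79.4 CPM in IQ3neg, so it was higher in the pools of 4 mice in both fractions.

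The subunits were also far from equal in level. Per kilobase of exon, Sdhb had a mean of 546 CPM in IQ3pos and Sdhd 361 CPM, but Sdha 90.3 and Sdhc 32.5 CPM. The same order held in IQ3neg, with 153, 115, 44.7 and 16.6 CPM per kilobase. The length is the union of all annotated exons of a gene, so a gene with long alternative ends reads low on this scale.

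**Figure D2:**
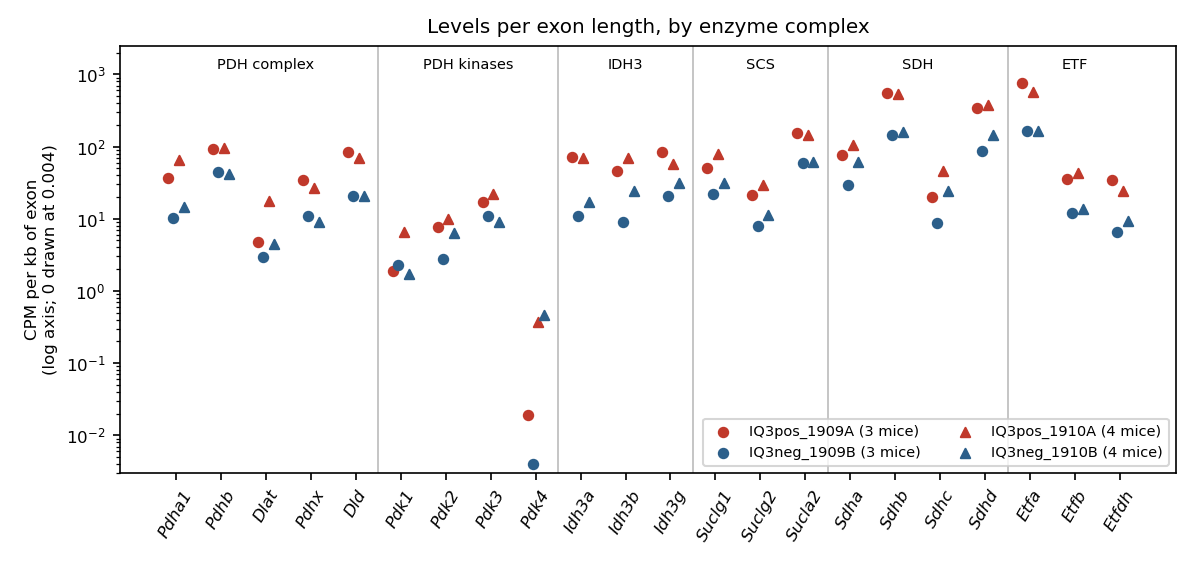
Level per kilobase of exon (CPM per kb, log axis) of the genes of 6 enzyme complexes or families in each library, with red for IQ3pos, blue for IQ3neg, circles for the pools of 3 mice and triangles for the pools of 4 mice (PDH, pyruvate dehydrogenase; SCS, succinyl-CoA ligase; SDH, succinate dehydrogenase; ETF, electron transfer flavoprotein and its dehydrogenase). Sdhb, Sdhd and Etfa lie above the other subunits of their groups, and the red and blue marks of Pdk1, Pdk4 and Sdhc overlap.

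Fumarase and the malate dehydrogenases complete the cycle, and all 3 genes stood higher in both IQ3pos libraries on both scales. Mdh2, the mitochondrial malate dehydrogenase, stood at 998 and 1238 CPM in IQ3pos, with 295 and 429 CPM in IQ3neg. Mdh1, its cytosolic counterpart in the malate shuttle, stood at 991 and 936 against 343 and 356 CPM. The log2 ratio of Mdh1 to Mdh2 per exon length was 0.27 ± 0.28 in IQ3pos, with 0.45 ± 0.34 in IQ3neg (SD, n = 2 each; exact permutation p = 0.667). Fh1, fumarase, had 6.56 times the level in IQ3pos in the pools of 3 mice and 2.88 times in the pools of 4 mice.

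Fatty acids enter the mitochondrion as carnitine esters. Cpt1a, which makes the ester and sets the rate of entry in many tissues, stood at 41.6 and 21.6 CPM in IQ3pos, with 28.9 and 5.72 CPM in IQ3neg. Cpt2, which turns it back into acyl-CoA inside, stood at 74.6 and 55.1 against 18.2 and 32.8 CPM. Cpt1a overlapped between the fractions on both scales, since IQ3neg_1909B lay above IQ3pos_1910A, and Cpt2 did not overlap on either. The TMM-scaled log2 differences were 0.40 ± 0.94 for Cpt1a and 0.61 ± 0.45 for Cpt2 (SE).

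The acyl-CoA dehydrogenases take the first electrons from fatty acids of long (Acadvl, Acadl), medium (Acadm) and short (Acads) chain length. Acadm (chromosome 3, 153922357 to 153944632, minus strand, GRCm38) stood at 280 and 144 CPM in IQ3pos, with 32.9 and 76.7 CPM in IQ3neg. It had the widest spread between pool sizes of the higher genes, 8.53-fold in the pools of 3 mice and 1.88-fold in the pools of 4 mice. Acadvl stood at 66.2 and 97.7 against 21.2 and 25.0 CPM, and Acadl had 2.13 times the IQ3neg mean in IQ3pos. The long-chain and medium-chain genes were thus higher in both IQ3pos libraries, also after TMM scaling, but for Acadl only by a narrow gap. Its TMM-scaled levels were 46.0 and 54.9 CPM in IQ3pos, with 45.3 and 36.2 CPM in IQ3neg. The TMM-scaled log2 differences were 0.30 ± 0.40 for Acadl, 1.01 ± 0.41 for Acadvl and 1.22 ± 0.50 for Acadm (SE). The log2 ratio of Acadm to Acadl overlapped between the fractions: 1.31 and -0.01 in IQ3pos, with -0.89 and 0.34 in IQ3neg (exact permutation p = 0.667, n = 2 each).

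Acads (chromosome 5, 115110299 to 115119346, minus strand, GRCm38), the short-chain enzyme, went the other way at a very low level. It had 5 and 28 reads in IQ3pos, with 114 and 2236 reads in IQ3neg. These are 0.0551 and 0.10 CPM against 0.991 and 5.34 CPM. Exact Poisson 95% intervals, which cover counting error only, were 0.0179 to 0.129 and 0.0667 to 0.145 CPM in IQ3pos and 0.818 to 1.19 and 5.13 to 5.57 CPM in IQ3neg. The IQ3neg libraries differed from each other far beyond counting error, and both lay above both IQ3pos libraries. The log2 difference on CPM was -1.72 ± 0.94 (SE; limma adjusted p = 0.335), where the added 1 CPM hides most of the fold. On the reads, it was -6.13 in edgeR (adjusted p = 0.283) and -6.01 in DESeq2 (adjusted p = 2.93e-05). DESeq2 called it lower in IQ3pos, as 1 of 1705 genes, and limma and edgeR did not. Acads passed the filter of a mean of 1 CPM only through IQ3neg, the fraction where it is high, so its order and call are a description.

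The steps after the first dehydrogenation are carried out by Echs1 (hydration), Hadh (the next oxidation), Acaa2 (thiolysis) and by the trifunctional protein of Hadha and Hadhb, which does all of these for long chains. All 5 stood higher in both IQ3pos libraries on CPM and 3 (Hadha, Hadh and Acaa2) after TMM scaling. The same order held for 40.9% and 24.7% of all genes. Acaa2 stood at 274 and 234 CPM in IQ3pos, with 90.2 and 90.2 CPM in IQ3neg. Hadhb stood at 139 and 181 against 85.4 and 88.1 CPM. The genes of the trifunctional protein lie head to head on chromosome 5 of GRCm38 (Hadha 30118304 to 30155162, minus strand, and Hadhb 30155248 to 30184593, plus strand). Hadha had 4.17 times the IQ3neg mean in IQ3pos and Hadhb 1.85 times. With TMM scaling their log2 differences were 1.32 ± 0.36 and 0.10 ± 0.31 (SE). The gap between the genes was not tested. Hadh was 2.61-fold and Echs1 2.45-fold higher on CPM, and Echs1 was uneven, 3.75-fold in the pools of 3 mice and 1.40-fold in the pools of 4 mice.

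The electron transfer flavoproteins collect electrons from every acyl-CoA dehydrogenase and pass them to ubiquinone. These 3 genes had the highest median of the roles with at least 3 tested genes, 1.88 on CPM and 1.12 with TMM scaling, and all 3 stood higher in both IQ3pos libraries on both scales. Etfa, the alpha subunit (chromosome 9, 55454508 to 55512243, minus strand, GRCm38), stood at 1411 and 1040 CPM in IQ3pos, with 302 and 297 CPM in IQ3neg. Etfdh, the dehydrogenase that reduces ubiquinone, stood at 259 and 180 against 48.5 and 68.7 CPM. In both genes IQ3pos_1909A was the highest library, and the IQ3neg libraries lay well below. The log2 difference of Etfa was 2.01 ± 0.27 (SE; limma adjusted p = 0.0617) on CPM and 1.24 ± 0.28 with TMM scaling. Etfb, the beta subunit that pairs with Etfa in equal number, was 3.09-fold higher in IQ3pos but far lower in level. It had 39.3 CPM per kilobase of exon in IQ3pos and 12.7 in IQ3neg, where Etfa had 668 and 163. Exons of Etfb overlap Gm45233 and Mir7051 on its own strand, and the part of this overlap in its low level was not tested.

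Eci1 and Decr1 are auxiliary enzymes that prepare unsaturated fatty acids for the pathway. Eci1, an enoyl-CoA isomerase, stood at 279 and 296 CPM in IQ3pos, with 62.6 and 89.2 CPM in IQ3neg. Decr1, a dienoyl-CoA reductase, stood at 52.0 and 64.6 against 9.01 and 27.1 CPM. Both were higher in both IQ3pos libraries on both scales, with TMM-scaled log2 differences of 1.17 ± 0.28 and 1.08 ± 0.57 (SE). The log2 ratio of the summed beta-oxidation to the summed TCA cycle genes, per exon length, was -0.68 and -1.06 in IQ3pos, with -0.96 and -1.20 in IQ3neg. It was higher in IQ3pos within each pool size, but the groups overlapped (difference 0.21, exact permutation p = 0.667). With a smallest possible p of 0.333, this test cannot show whether the ratio differed. Genes of high level such as Etfa (668 CPM per kilobase in IQ3pos) weigh most in these sums.

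Within each pool size the direction was much the same. On TMM-scaled CPM, 34 of the 42 genes were higher in IQ3pos in the pools of 3 mice, where 51.8% of all genes were, and 38 of 42 in the pools of 4 mice, where 52.2% were. The 29 genes with both IQ3pos libraries above both IQ3neg libraries are in both counts by definition, so these counts largely restate that order. The median differences were 0.78 and 0.73. The 17 TCA cycle genes were higher in 15 cases in the pools of 3 mice and in 17 in the pools of 4 mice. Sdhb, Cs, Mdh2 (0.88 and 0.87) and Acaa2 (0.72 and 0.71) were nearly equal in the 2 pool sizes. Acadm (2.19 and 0.24), Fh1 (1.82 and 0.85), Dlat (-0.19 and 1.26), Pdk1 (-1.11 and 1.22) and Pcx (above) were uneven.

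**Figure D3:**
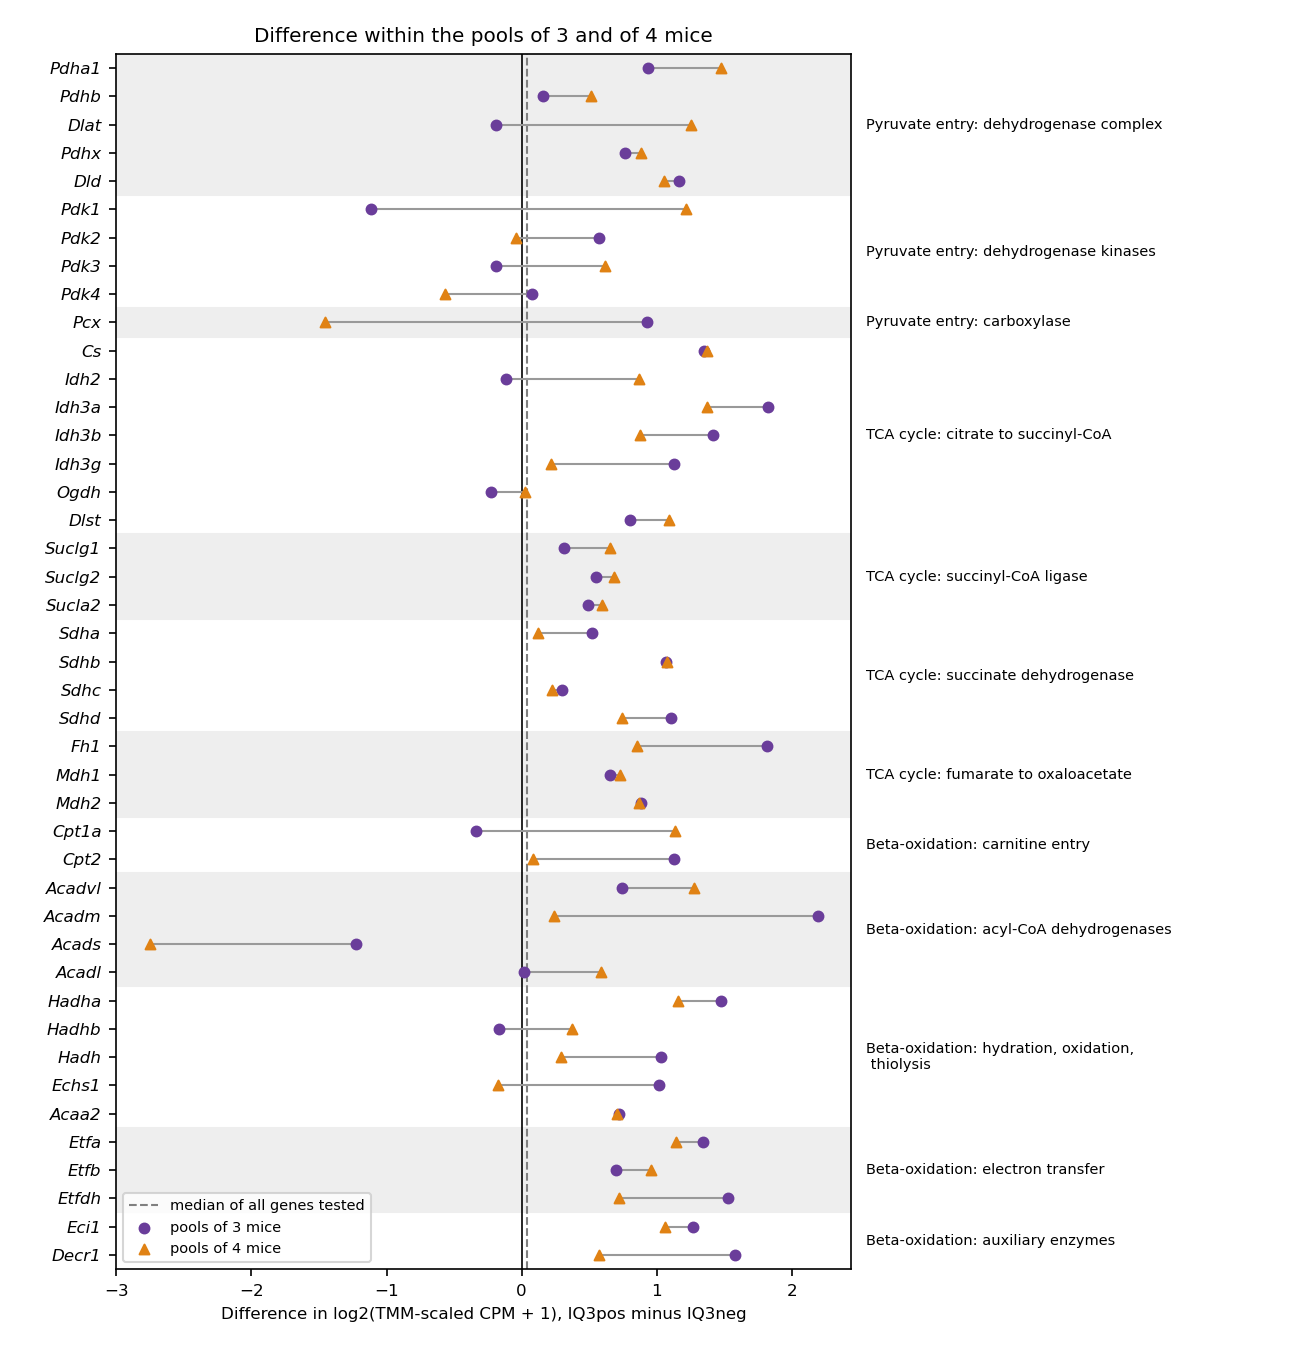
Difference between IQ3pos and IQ3neg for each of the 43 genes within the pools of 3 mice (purple circles) and of 4 mice (orange triangles), in log2(TMM-scaled CPM + 1), with a grey line joining the pair. The solid line is 0 and the dashed line the median of all genes tested (0.04); the marks of Sdhb, Cs, Mdh2 and Acaa2 nearly coincide, while those of Pdk1 and Pcx lie on opposite sides of 0.

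Genes of high level tended to be higher in IQ3pos as a whole. Among 2353 genes averaging 50 or more TMM-scaled CPM, 48.9% had both IQ3pos libraries above both IQ3neg ones, and the median difference was 0.40. Of the 43 genes, 29 were in that range, and 23 of these had this order. The range was chosen after the data were seen and rests on the mean of all 4 libraries, so a gene can enter through the fraction where it is high: Cs, Fh1, Hadha, Hadh and Echs1 had IQ3neg means under 50. These counts are therefore a description of the range and support no difference.

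Genes next to these pathways had shares nearer to those of all genes. Of 31 tested genes of pyruvate transport, anaplerosis and the wider cycle, 15 were higher and 2 lower in both IQ3pos libraries on CPM, and 9 and 6 after TMM scaling, where 40.9% of all genes were higher on CPM and 24.7% higher and 23.0% lower after TMM scaling. The most abundant were Idh1, the cytosolic NADP-dependent isocitrate dehydrogenase, and Mpc2, of the mitochondrial pyruvate carrier. Idh1 stood at 194 and 337 CPM in IQ3pos, with 81.1 and 87.9 CPM in IQ3neg, and Mpc2 at 207 and 162 against 76.0 and 80.8 CPM. Both lay higher in both IQ3pos libraries on both scales. Of 31 tested genes of fatty acid activation, peroxisomal oxidation and ketone bodies, 16 were higher and 1 lower on CPM, and 13 and 5 after TMM scaling, to be read against the same shares. Acat1, the thiolase of ketone body metabolism, stood at 893 and 949 against 182 and 240 CPM, and Hsd17b10, a mitochondrial hydroxyacyl-CoA dehydrogenase, at 489 and 352 against 107 and 119 CPM. The medians of these lists on the TMM scale were 0.14 and 0.29, under those of the TCA cycle and beta-oxidation genes (0.69 and 0.77). The pyruvate entry genes lay nearer to these lists, with a median of 0.33 and 4 of 9 tested genes higher in both IQ3pos libraries. The gaps between these medians were not tested.

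Of 14 tested regulators of oxidative metabolism, 5 were higher and 3 lower in both IQ3pos libraries after TMM scaling, counts close to the 24.7% and 23.0% of all genes, with a median of -0.14. Esrrg, an estrogen-related receptor that is also on the parietal cell list below, stood at 212 and 99.1 CPM in IQ3pos, with 9.86 and 40.9 CPM in IQ3neg. Tfam, which maintains mitochondrial DNA, stood at 58.2 and 78.6 against 12.7 and 24.7 CPM. Both were higher in both IQ3pos libraries, but neither passed limma's test (adjusted p = 0.119 and 0.125 on CPM). In these 3 lists the edgeR test and limma on TMM-scaled CPM called no gene, while DESeq2 called 1 of 33, 3 of 35 and 1 of 15 genes lower, beside 10.1% of all genes, and 1 of the 35 higher, beside 2.54%. Acsl1, among the lower, and Bdh1, of ketone body metabolism, the higher, were named after their values were seen. Acsl1, which activates long-chain fatty acids, stood at 34.2 and 35.6 against 114 and 76.3 CPM, and so was lower in both IQ3pos libraries, where Acadvl, Acadl and Acadm were higher.

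The respiratory chain, which takes up the electrons of both pathways, had the same direction as most of the 43 genes. Of 70 tested nuclear genes of the chain, 69 were higher in both IQ3pos libraries on CPM and 62 after TMM scaling. These counts stand beside 40.9% and 24.7% of all genes. The median of the 70 genes was 0.82 on the TMM scale, beside 0.68 for the 42. Uqcrc1, of complex III, stood at 1778 and 1986 CPM in IQ3pos, with 384 and 626 CPM in IQ3neg. Atp5g1, of the ATP synthase, stood at 1049 and 968 against 290 and 318 CPM. Their summed level was 3.04 times as high in IQ3pos on CPM and 1.79 times after TMM scaling, beside 3.01 and 1.78 for the 43 genes.

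**Figure D4:**
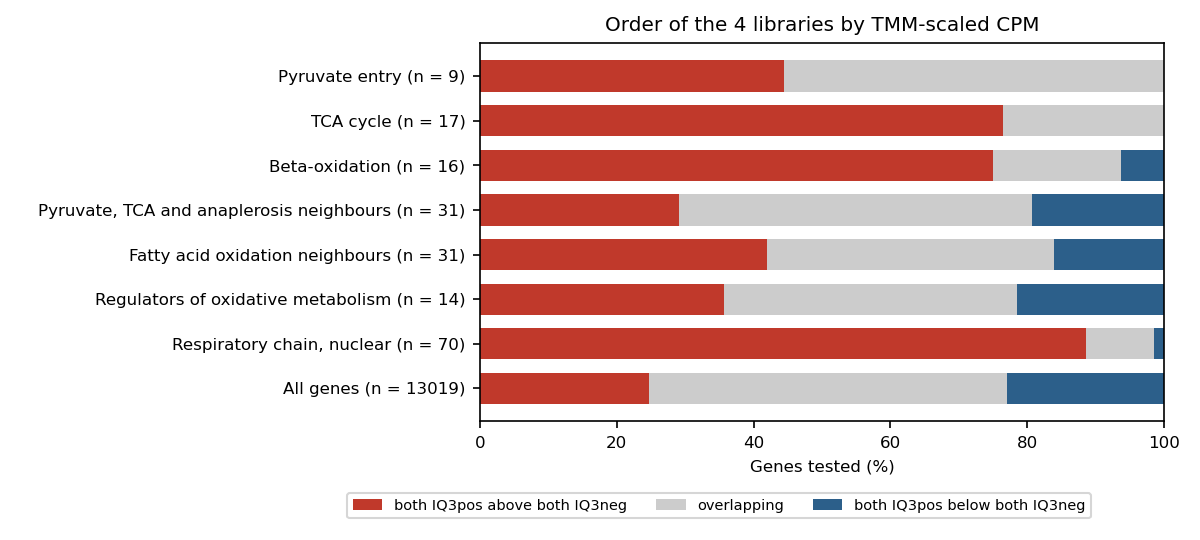
Share of the tested genes of each list (percent) in which both IQ3pos libraries lay above both IQ3neg libraries (red), below both (blue) or overlapped with them (grey), by TMM-scaled CPM, with the number of tested genes in brackets. The TCA cycle (13 of 17), beta-oxidation (12 of 16) and respiratory chain (62 of 70) bars are mostly red, while the bar of all genes has 24.7% red and 23.0% blue. In the pyruvate entry bar 4 of 9 genes are red and the others grey.

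Markers of several corpus cell types also differed between the fractions. The 18 parietal cell markers summed to 8754 and 8232 CPM in IQ3pos, with 920 and 1667 CPM in IQ3neg. That is 6.57-fold on CPM and 3.97-fold after TMM scaling, where the 43 genes were 1.78-fold. On the TMM scale 12 of the 18 were higher in both IQ3pos libraries, 5 overlapped and 1, Slc4a2, was lower in both. The largest parts of the sum were Atp4b, a subunit of the acid pump, and Car2. Atp4b stood at 3085 and 2187 against 308 and 300 CPM, and Car2 at 3506 and 4186 against 324 and 841 CPM. The 15 proliferation markers summed to 1993 and 4531 against 142 and 354 CPM, and all 15 were higher in both IQ3pos libraries. The 8 pit cell markers summed to 1.63 times the IQ3neg mean on CPM and 0.962 times after TMM scaling. Of these, 7 were higher in both IQ3pos libraries on both scales, such as Gkn1 (5343 and 4945 against 599 and 697 CPM), and Psca was lower (2479 and 2360 against 7108 and 8306 CPM). The 4 mucous neck cell markers summed to 4.07 times on CPM and 2.44 times after TMM scaling. Only Tff2 of the 4 was higher in both IQ3pos libraries (4236 and 5492 against 415 and 596 CPM); after TMM scaling Gkn3 overlapped and Muc6 and Cd44 were lower in both. Chief cell markers summed to 61974 and 22080 CPM in IQ3pos, with 518110 and 503990 CPM in IQ3neg. Enteroendocrine markers summed to 445 and 289 against 17710 and 11751 CPM. The part of the cell make-up in the difference of the 43 genes was not tested.

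Markers of cells from outside the epithelium varied by library. Of the 13 stromal, endothelial and muscle markers, 9 were under 1 CPM in every library, and the list summed to between 1.61 and 28.6 CPM. Of the 9 adipocyte and erythroid markers, 5 were under 1 CPM in every library, with sums from 0.476 to 13.9 CPM, and Adipoq was at 0 reads in all libraries but IQ3pos_1909A. The 10 immune markers summed to 260 and 61.7 CPM in IQ3pos, with 357 and 72.0 CPM in IQ3neg, so they were higher in the pools of 3 mice in both fractions. Most of this was Lyz2, a lysozyme of macrophages, at 211 and 43.9 against 298 and 53.2 CPM, a level within the range of the 43 genes. The 9 tuft cell markers, of an epithelial type, summed to 709 and 196 CPM in IQ3pos, with 509 and 1587 CPM in IQ3neg, so the sum on CPM turned between pool sizes. After TMM scaling 7 of the 8 tested tuft markers were lower in both IQ3pos libraries. The part of these cells in the differences was not tested. The 6 epithelial markers, Epcam among them, summed to between 3242 and 11349 CPM.

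**Figure D5:**
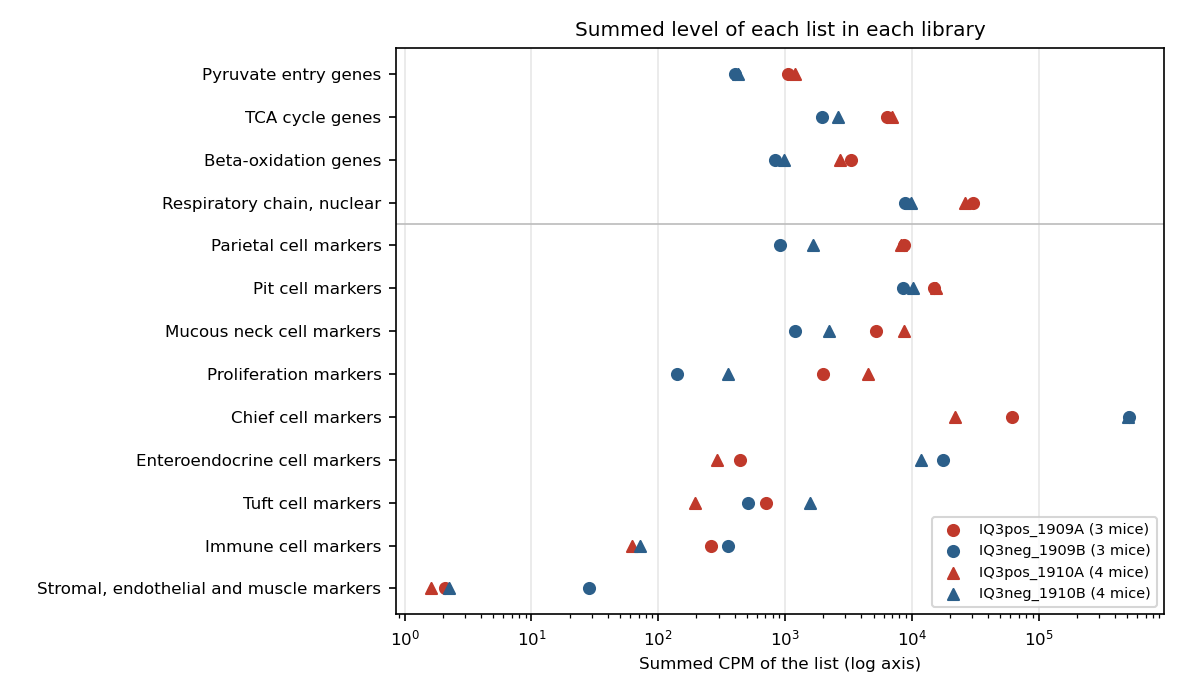
Summed level (CPM, log axis) of the 3 pathway lists, the nuclear respiratory chain and 9 cell type marker lists in each library, with red for IQ3pos, blue for IQ3neg, circles for the pools of 3 mice and triangles for the pools of 4 mice. The pathway sums of IQ3pos lie to the right of IQ3neg, as do the parietal, pit, mucous neck and proliferation sums. The chief cell, enteroendocrine and stromal sums lie to the left.

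Since most of the genes stood higher together, their promoters were searched for short motifs of factors known to act on mitochondrial genes. RefSeq windows from 250 bases before to 50 after a start site (GRCm38.p6) were at hand for 39 of the 43 genes and for 27025 genes in all, and each motif was searched on both strands. The NRF1 site GCGCATGCG was found in 3 of the 39 genes (7.69%; Ogdh, Acadm and Etfdh) and in 1.95% of all genes. The estrogen-related receptor element TCAAGGTCA was found in 1 (2.56%; Sdhd) and in 0.466% of all genes, and its shorter core AAGGTCA, which lies within it, in 3 (7.69%; Ogdh, Sdhd and Acadm) and in 5.38%. The ETS site CCGGAAGT was found in 2 (5.13%; Dlst and Cpt2) and in 4.31%, and the CCAAT box in 21 (53.8%) and in 41.1%. With 39 genes, these counts rest on 1 to 3 promoters for all motifs but the CCAAT box, and a match does not show that a factor binds there.

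Acadm and Etfdh are shown because they hold an NRF1 match and both lay higher in both IQ3pos libraries. The stretch of Acadm spans chr3:153944784-153944893 and that of Etfdh chr3:79628858-79628917, both on the minus strand of GRCm38.p6 and written 5′ to 3′ along the gene. They run from base -250 to -141 and from base -150 to -91 relative to the start. In GENCODE vM21 the stretch of Acadm lies upstream of every transcript of the gene, while that of Etfdh lies in an exon of a retained-intron transcript and its last bases reach the first exon of a coding one. Capitals mark the matches: in Acadm the core of the estrogen-related receptor element on the opposite strand, then the NRF1 site on the opposite strand, and in Etfdh an NRF1 site that reads on both strands.
Acadm: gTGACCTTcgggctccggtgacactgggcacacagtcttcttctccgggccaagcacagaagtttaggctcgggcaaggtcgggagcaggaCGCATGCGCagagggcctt
Etfdh: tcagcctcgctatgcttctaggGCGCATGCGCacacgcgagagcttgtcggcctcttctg
Ogdh, the other gene with an NRF1 match, was 1.59-fold higher on CPM, with a TMM-scaled log2 difference of -0.10 ± 0.34 (SE). Its match lay only in windows of start sites inside the gene (chr11:6292308-6292607 and 6292329-6292628). A link between the match and the level was not tested.

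The reads of 7 of the 43 genes could include those of a gene on the opposite strand, since the exons overlap and the strand setting of the counting is not given in the sources used here. These are Acadvl with Dvl2, Echs1 with Paox, Etfdh with 4930579G24Rik, Hadha with Garem2, Idh3b with Nop56, Mdh1 with Wdpcp and Pdha1 with Map3k15. Etfb overlaps Gm45233 and Mir7051 on its own strand.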

How the data were processed

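The 4 libraries, 2 per fraction, were grouped by the labels. The authors deposited CPM per gene symbol, and each column sums to 1000000, so no composition factor had been applied. The submitters' processing notes name GRCm38/mm10, STAR (2.7.1a), Subread (2.0.0) with featureCounts, and edgeR, in no order. Not given in the sources used here are the annotation, the strand setting and how duplicate or multi-mapped reads were treated. All values above 0 (100.0%) fell within 0.05 of a whole number of reads, so reads were recovered: 90714929, 115016307, 279125309 and 418401262 in IQ3pos_1909A, IQ3neg_1909B, IQ3pos_1910A and IQ3neg_1910B.

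Genes averaging 1 CPM or more (13019) were tested by limma-trend on log2(CPM + 1), two-sided, without a block, with Benjamini-Hochberg adjustment at 0.05 (R 4.3.3, limma 3.58.1). The scale understates changes of low genes. Residual degrees of freedom were 2, with 3.61 prior ones. TMM factors came from the tested genes. edgeR 4.0.16 (quasi-likelihood) and DESeq2 1.42.0 were run on the 16831 genes passing filterByExpr. The edgeR test called 11 genes higher and 38 lower. Scripts were tested on simulated data. Genes given in full are, per role, the 2 of highest mean CPM, any past the threshold in limma or edgeR, any lower in both IQ3pos libraries, and the 4 Pdk genes; the other genes with single values were free to be named. Of the neighbouring lists, the called genes or otherwise the 2 most abundant are given. A gene of the neighbouring lists is not reported here. The genes and lists were chosen with earlier results of these data known. Gene coordinates and exon lengths are from GENCODE vM21 on GRCm38. Alternatives were pseudocounts, filters, scalings, left-out libraries, a replicate block and the count tests. Reads carry no molecular identifiers, so intervals cover counting error only.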

Additional observations from a re-analysis of the deposited data

How the results depend on the processing

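Of 628 values for the 42 tested genes over 15 alternatives (not counting the one at 50 TMM-scaled CPM, chosen after seeing the data), 562 kept their sign and their side of the threshold, 48 kept their sign and now passed it, and 18, from 6 genes, changed sign. Median difference of the 42 genes (1.45): TMM-scaled CPM gave 0.68, DESeq2-scaled CPM 0.68, leaving out the 20 most abundant genes 0.45, the replicate block with TMM 0.68, edgeR 0.65, DESeq2 0.68, and TMM-scaled CPM with a mean of at least 50 CPM 0.82. Leaving out each library in turn gave 1.22 to 1.65 on CPM and 0.65, 0.74, 0.77 and 0.82 on TMM-scaled CPM. Relative to all genes (0.77) the median became 1.42 with no filter, where many genes at 0 enter, and 0.43 at 50 CPM. Genes higher in both IQ3pos libraries (37) became 22 without the 20 most abundant genes and 23 at 50 CPM, where 29 were tested.

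Calls turned on the setting. Genes higher and lower over the whole table (0 and 0) became 239 and 54 with a pseudocount of 5, 689 and 93 with a mean of at least 5 CPM, 6 and 24 on TMM-scaled CPM, 16 and 33 on DESeq2-scaled CPM, 11 and 38 in edgeR, 2 and 9 without the 20 most abundant genes, 427 and 1705 in DESeq2, and 188 and 84 at 50 TMM-scaled CPM. Of the 42 genes, 7 were called higher with a pseudocount of 5, 15 with a mean of at least 5 CPM and 1 lower in DESeq2. At 50 TMM-scaled CPM 5 were called higher, of which Cs entered through its IQ3pos level. The libraries share numbers in their titles, which the labels do not say pair them, and with 2 pairs the correlation of same-numbered deviations across 13019 genes was 0.148. With that number as a replicate block, 1216 genes were higher and 125 lower, 21 of the 42 among the higher; on TMM-scaled CPM the block gave 242 and 155, with 4 of the 42. Leaving out each library called 0 genes.

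The log2 differences that changed sign were those of Pcx (0.42), with -0.26 on TMM-scaled CPM, -0.26 on DESeq2-scaled CPM, -0.48 without the 20 most abundant genes, -0.26 with block and TMM, -0.65 in edgeR, -0.47 in DESeq2 and -0.47 to 1.30 over left-out libraries. Ogdh (0.66) gave -0.10 on TMM-scaled and -0.10 on DESeq2-scaled CPM, -0.32 without the 20 genes, -0.10 with block and TMM, -0.14 in edgeR and -0.10 in DESeq2. Pdk1 (0.78) gave -0.17 without the 20 genes and -0.094 to 1.66 over left-out libraries. Without the 20 genes Pdk3 gave -0.0032 and Hadhb -0.12, and Cpt1a gave -0.038 in DESeq2. The scalings shift differences down by construction; otherwise the cause was not tested. Of the 43 genes, counting error was wide for Acads in the IQ3pos libraries and for Pdk4 in the pools of 3 mice.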
